A study of Mus musculus with 16 samples.

Results

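The ileal transcriptome of Tas1r3-/- mice was compared with that of Tas1r3+/+ mice on the normal diet (ND), the arm of the study in which genotype was the only intended difference. The comparison rests on 6 of the 16 deposited libraries of the series. They are the 2 male ND-fed Tas1r3-/- libraries (males 1 and 2) and the 4 ND-fed Tas1r3+/+ libraries (males 1 and 2 and females 1 and 2), all from terminal ileum of mice on the C57BL/6 strain. The Tas1r3-/- mice carry the Tas1r3tm1Csz allele in every cell and were bred to C57BL/6 for at least 7 generations, and the Tas1r3+/+ mice were their littermates. The mice were 5 to 6 weeks old at the start and received ND pellets and plain water for 10 weeks. The mice on the Western diet (WD), used here as a second look, were given high-fat pellets and sugared water. Both columns labelled as ND-fed Tas1r3-/- females were omitted, because all but 17 and 18 of their 59258 transcripts equal fixed weighted means of the 2 male columns (0.75 and 0.25 of males 1 and 2 for female 1, and 0.625 and 0.375 for female 2). The Tas1r3-/- group is therefore 2 male mice, whereas the Tas1r3+/+ group holds both sexes.

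TAS1R3 is the shared subunit of the sweet receptor, which it forms with TAS1R2, and of the amino acid (umami) receptor, which it forms with TAS1R1. In the gut, this receptor is known from enteroendocrine and tuft cells, where binding of a sugar or amino acid is relayed through a G protein, phospholipase C and the cation channel TRPM5. The ileum around these rare cells consists mainly of absorptive enterocytes, which take up sugars, peptides, fat and bile acids, of mucus-secreting goblet cells, and of crypts in which stem cells divide beside Paneth cells that secrete alpha-defensins.

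The deposited values are treated as RPKM (reads scaled by transcript length and library depth). Their library total could not be checked, so reads derived from them are approximate. The values were summed here over the transcripts of a gene and divided by a scale factor per library (scaled RPKM). Of 23299 genes, 18232 reached an RPKM of 1 in 2 or more of the 6 libraries and are described. The values imply 7028950 to 12373169 reads per library, and 1 read on a transcript of 1 kb corresponds to an RPKM of 0.0829 to 0.139. All 6 libraries matched their sex labels, and the defining ileal genes were present in all, with Slc10a2, the bile acid transporter of ileal enterocytes, between 38.5 and 128 scaled RPKM. Among the Tas1r3+/+ libraries, female 1 stood apart in B cell genes (summed level 115 against 7.6 to 18.8 in the other Tas1r3+/+ libraries) and in smooth muscle genes (3768 against 1209 to 1784). In 7 genes, 16 values of these libraries carry more digits than the 6 that the quantification wrote elsewhere, and they include values of Tas1r3, Pparg, Ppara and Mtor.

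Tas1r3 itself was the only gene that changed at an adjusted p under 0.05 (1 of 18232 genes, 0.00548%, by limma with Benjamini-Hochberg adjustment). Unless stated otherwise, limma standard errors and p-values draw their spread from 13 libraries, 7 of them from the WD. With the 6 ND libraries alone, Tas1r3 was not among the 3 genes called. Tas1r3 (ENSMUSG00000029072.3, chr4:155859268-155863362, minus strand, GRCm38) stood at 1.53 and 1.6 scaled RPKM in the Tas1r3+/+ males and at 2.16 and 1.62 in the females. In the Tas1r3-/- males it stood at 0.000753 and 0.000683. The wild-type mean was 1.73 ± 0.29 (SD, n = 4), so the receptor gene is a low-level transcript of the whole ileum. The log2 difference, taken after adding 0.5 to the scaled RPKM, was -2.14 with a standard error of 0.24 (limma adjusted p = 0.0165). Leaving out any 1 of the 6 libraries kept the difference between -2.17 and -2.03, with limma adjusted p-values of 0.0650 to 0.537, and with sex as a covariate the limma adjusted p was 0.0623. Against a floor of 3 reads per library, the unscaled level was at least 20.1-fold lower in Tas1r3-/- mice. The knockout values correspond to 0.0309 and 0.0235 of a read, which is not a whole number of reads, and a value above 0 that corresponds to as little of a read or less was found in 1.62% and 1.65% of the genes with 1 transcript and a value above 0 in these libraries. In both Tas1r3+/+ males, the value of Tas1r3 is one of those with additional digits. No gene passed the stricter threshold of the study, an adjusted p under 0.01 with a fold of at least 2 (0 of 18232 genes, 0%), whereas 925 genes (5.07%) had an unadjusted p under 0.05 by limma.

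Of the 18 taste transduction genes listed, Tas1r3 included, 10 were tested. The median log2 difference of the 9 besides Tas1r3 was -0.19, against 0.02 over all tested genes. Gng13, the gamma subunit that couples taste receptors to their effectors, was at 0.653 to 1.75 scaled RPKM in the Tas1r3+/+ libraries. It was at 2.47 and 2.87 in the Tas1r3-/- libraries (log2 difference 0.86, standard error 0.40). Trpm5, the cation channel that depolarises taste and tuft cells, was at 2.53 to 3.02 in Tas1r3+/+ mice. It reached 4.02 and 3.35 in Tas1r3-/- mice (0.31, standard error 0.40). Both genes thus had no overlap between genotypes, with the knockout above. Such separation was common: the groups did not overlap in 4201 genes (23%), with the knockout above in 1703 (9.34%) and below in 2498 (13.7%). An exact permutation test of 2 against 4 libraries has 15 divisions, so its smallest p is 0.0667 and it cannot reach 0.05. Entpd2, which degrades the transmitter ATP, was lower without overlap (17.9 to 26 against 16.4 and 11.5), as was Gnb1, a beta subunit of many G proteins (165 to 214 against 154 and 153). Plcb2, Itpr3, Trpm4, Pde1a and Gnat1 overlapped between genotypes. Of the 14 tuft cell genes tested, 0 were higher and 1 was lower without overlap, and the median was 0.23. Among 19 enteroendocrine genes, 1 was higher and 2 were lower (median 0.08). The 2 lower enteroendocrine genes were Nts, the neurotensin hormone gene of the distal small intestine (26.6 to 49.8 against 22.6 and 15.4), and Neurog3, which specifies the lineage (0.813 to 1.74 against 0.526 and 0.620).

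At an unadjusted p under 0.01 and a 2-fold difference, 80 genes (0.439%) stood out, 42 higher (0.23%) and 38 lower (0.208%) in Tas1r3-/- mice. None but Tas1r3 passed adjustment, so the 80 are given as a description of size. Without scaling of the libraries, the split was 28 higher and 148 lower and the median of all genes was -0.15 on the log2 scale. The kinds of gene differed between the directions. Of the 42 higher, 11 were protein-coding, 9 were immunoglobulin V segments and 11 were pseudogenes, and 16 had a wild-type mean under 2 in unscaled RPKM. Of the 38 lower, 26 were protein-coding and 6 were pseudogenes. In the males alone, 38 of the 42 and 35 of the 38 were 2-fold or more apart. These males are among the libraries on which the genes were chosen, so the count is no separate test.

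**Figure D1:**
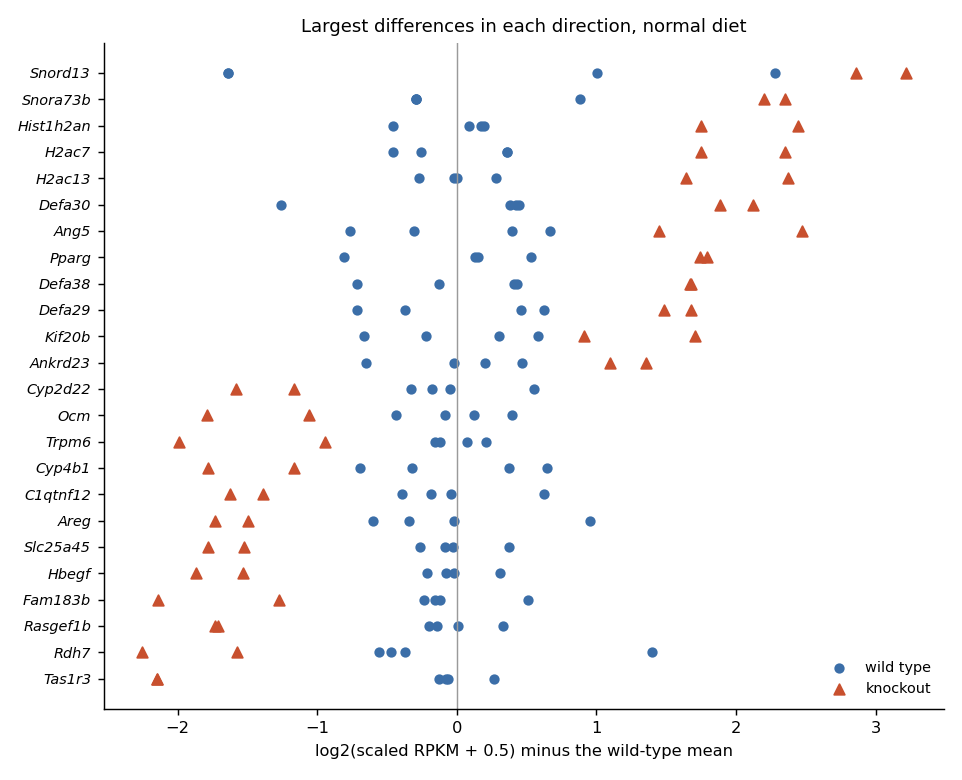
Levels in the 6 ND libraries of the 12 genes with the largest positive and the 12 with the largest negative log2 difference among those with an unadjusted p under 0.01, at least 2-fold and without overlap (rows). The x axis is log2(scaled RPKM + 0.5) minus the wild-type mean, circles are the 4 Tas1r3+/+ libraries and triangles the 2 Tas1r3-/- libraries; in each row both triangles lie on one side of all circles, as the choice of genes requires.

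Among the 12 genes with the largest lower levels, 2 encode ligands of the epidermal growth factor (EGF) receptor. Hbegf, the heparin-binding ligand that is induced in wounded epithelium, was at 13.8, 18.2, 12.5 and 14.4 scaled RPKM in Tas1r3+/+ males 1 and 2 and females 1 and 2. It was at 3.63 and 4.71 in the Tas1r3-/- males (log2 difference -1.70, standard error 0.52). Areg, the ligand amphiregulin, was at 1.74, 1.37, 5.01 and 2.30 against 0.353 and 0.505 (-1.62, standard error 0.53). For both genes, the highest knockout value was well under the lowest wild-type value. The family was then read as a whole, a grouping made after these values were seen. Of 11 tested ligands, receptors and feedback regulators, 6 were lower without overlap, against 13.7% of all genes, and 0 were higher. Their median was -0.78. Egfr, the receptor, was at 2.25 to 4.89 against 1.36 and 1.15 (-1.08, standard error 0.45). Errfi1, a feedback inhibitor of the receptor, was at 12.4 to 18.3 against 6.10 and 6.62, and Tgfa, another ligand, was at 4.87 to 5.88 against 3.34 and 2.64. On the WD, the median of the same 11 genes was -0.19, with a log2 difference of -0.59 for Hbegf and -0.19 for Areg. In the males alone, a comparison in which genes separated in all 6 libraries are separated by construction, 7 of the 11 were lower without overlap (24.6% of all genes were) and the median was -0.76.

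Early-response genes, which are transcribed within minutes of growth factor or stress signals, included 4 of 17 that were lower without overlap and 0 that were higher (median -0.29), a share near the 23% of all genes without overlap. With sex as a covariate the median was -0.16, and in males alone it was -0.10, with 3 genes higher and 5 lower. Fos was at 51.7, 77.6, 72.1 and 93.7 scaled RPKM in the Tas1r3+/+ libraries and at 28.1 and 27.6 in the Tas1r3-/- libraries (-1.36, standard error 0.60). Jun was at 33.4 to 58.4 against 26.9 and 16.3 (-1.03), Atf3 at 11.4 to 22.4 against 6.50 and 3.78 (-1.62), and Junb at 49.7 to 88.0 against 45.6 and 26.3 (-0.96). These 4 transcription factors are the 4 genes without overlap, named for their own values. Their limma p-values before adjustment were 0.043, 0.023, 0.041 and 0.079, and none passed adjustment.

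The other genes among the 12 lower ones belong to several functions. Slc25a45, a mitochondrial carrier, was at 8.12 to 12.9 scaled RPKM in Tas1r3+/+ mice and at 3.10 and 2.52 in Tas1r3-/- mice (-1.65, standard error 0.35). Its limma p was 0.00041 before adjustment and 0.869 after. Rasgef1b, an exchange factor for Ras-family proteins that is induced by inflammatory signals in macrophages, was at 5.49 to 8.18 against 1.6 and 1.57 (-1.72, standard error 0.46). Trpm6, a magnesium channel of absorptive epithelium, was at 5.65 to 7.43 against 1.22 and 3.07 (-1.47). The cytochrome P450 genes Cyp4b1 (16.1 to 41.5 against 7.30 and 11.5) and Cyp2d22 (16.1 to 30.1 against 6.49 and 8.79) were lower as well. For Fam183b, the wild-type level was 1.37 to 2.64 and the knockout level was 0.00125 and 0.412, with a WD difference of 0.78 in the opposite direction.

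Of the 12 genes with the largest higher levels, 3 were histone H2A genes (Hist1h2an, H2ac7 and H2ac13) and 3 were alpha-defensin genes. Ang5, an angiogenin-family ribonuclease, was at 0.634 to 2.57 scaled RPKM in Tas1r3+/+ mice and at 10.2 and 4.75 in Tas1r3-/- mice (1.96, standard error 0.60). Kif20b, a mitotic kinesin, was at 0.744 to 2.45 against 3.22 and 5.95 (1.31, standard error 0.37). Ankrd23, an ankyrin-repeat gene known from muscle, was at 0.481 to 1.63 against 3.45 and 2.79 (1.23, standard error 0.38). The small nucleolar RNA genes Snord13 and Snora73b, which guide modification and processing of ribosomal RNA, had the largest values (3.04 and 2.28). Snord13 was at 0 in 2 of the 4 Tas1r3+/+ libraries and reached 7.08 in another, and their transcripts are short, so few reads stand behind either difference.

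The replication-dependent histone genes encode the core histones that package newly made DNA, and their transcripts peak in S phase. The H2A genes of this family had the following upstream sequences (250 bases that end at the annotated start, RefSeq, GRCm38.p6, 5′ to 3′ on the strand of the gene), shown because 3 of them stood apart together and the last one did not. Capitals mark CCAAT on either strand (CCAAT or ATTGG), a motif of histone promoters.
H2ac7 (chr13:23574131-23574380, plus strand): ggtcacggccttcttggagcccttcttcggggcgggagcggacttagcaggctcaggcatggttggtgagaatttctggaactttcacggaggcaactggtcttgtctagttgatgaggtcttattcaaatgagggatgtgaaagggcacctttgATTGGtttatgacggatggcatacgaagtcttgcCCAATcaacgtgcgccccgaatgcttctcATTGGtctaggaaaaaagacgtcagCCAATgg
H2ac13 (chr13:21716162-21716411, plus strand): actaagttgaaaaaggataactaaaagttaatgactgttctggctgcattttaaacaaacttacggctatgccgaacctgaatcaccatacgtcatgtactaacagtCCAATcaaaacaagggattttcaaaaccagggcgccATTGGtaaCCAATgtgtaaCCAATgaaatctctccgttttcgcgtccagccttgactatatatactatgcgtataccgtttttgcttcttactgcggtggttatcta
H2ac10 (chr13:23533625-23533874, plus strand): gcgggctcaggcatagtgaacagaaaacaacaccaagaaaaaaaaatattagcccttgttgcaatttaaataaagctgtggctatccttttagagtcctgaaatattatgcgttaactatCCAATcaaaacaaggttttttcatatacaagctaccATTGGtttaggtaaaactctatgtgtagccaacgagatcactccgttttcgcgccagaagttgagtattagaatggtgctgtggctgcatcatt
H2ac18 (chr3:96245247-96245496, plus strand): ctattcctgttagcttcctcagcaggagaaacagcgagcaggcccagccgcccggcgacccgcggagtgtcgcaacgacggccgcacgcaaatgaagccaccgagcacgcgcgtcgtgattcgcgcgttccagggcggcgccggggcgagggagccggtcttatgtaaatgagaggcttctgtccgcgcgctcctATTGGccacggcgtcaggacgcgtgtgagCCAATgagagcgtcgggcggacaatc

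CCAAT was found in all 12 H2A promoters that RefSeq provided, and in 33.8% of all 32851 promoters of the same length. The 8 genes whose groups did not overlap and the 4 whose groups did all held it. A TATAAA motif (either strand) was found in 2 of the 8 and in 2 of the 4, against 12.4% of all promoters. Neither motif separated the H2A genes that stood apart from those that did not.

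Hist1h2an was at 1.17 to 2.12 scaled RPKM against 7.21 and 12 (2.10). H2ac7, one of the chromosome 13 genes shown, was at 0.849, 1.87, 1.05 and 1.88 scaled RPKM in Tas1r3+/+ males 1 and 2 and females 1 and 2. It was at 5.74 and 8.95 in the Tas1r3-/- males (log2 difference 2.05, standard error 0.62). H2ac13 was at 1.49 to 2.43 against 6.99 and 12 (2.01), and H2ac10 at 1.33 to 2.77 against 7.96 and 11 (2.03). H2ac18 on chromosome 3 was at 11.9 to 28.6 against 17.7 and 9.90 (-0.64), within the wild-type range for one knockout library and below it for the other. Of 18 tested H2A genes, 13 were higher and 0 were lower without overlap, against 9.34% and 13.7% of all genes. Over all 48 core histone genes, a grouping made after these values were seen, 16 were higher and 0 were lower without overlap, and the median was 0.31. The H2A coding sequences are near-identical, so reads may have been divided among them and single members are uncertain. Histone transcripts of this class lack a poly(A) tail, whereas the libraries were made from poly(A)-selected RNA.

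Genes of stem cells and cell division lay higher in the same libraries, with 10 of 29 higher and 0 lower without overlap (median 0.34). Of all genes, 9.34% were higher. Top2a, the topoisomerase of dividing cells, was at 37.8, 27.6, 29.6 and 30.5 scaled RPKM in Tas1r3+/+ mice and at 51.9 and 73.9 in Tas1r3-/- mice (0.98, standard error 0.33). Birc5 (survivin), a mitotic gene, was at 17.0, 19.3, 13.1 and 17.9 against 28.4 and 32.7 (0.85, standard error 0.26). Cdc20, an activator of the anaphase-promoting complex, was at 5.12 to 9.44 against 10.3 and 17.2, and Ccnb2, a mitotic cyclin, at 3.68 to 10.2 against 12.6 and 13.3. With sex as a covariate, the median of the list was 0.09, so its size depends on how the wild-type females are treated. In the males alone, 10 of the 29 were higher without overlap, against 23.9% of all genes. On the WD, the median was 0.18.

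Absorptive enterocyte genes formed the broadest pattern of lower levels. All 12 ileal enterocyte markers tested had a negative log2 difference, while 51.8% of all tested genes had a positive one. Of the 12, 9 were lower without overlap, against 13.7% of all genes (median -0.85, and -0.49 with sex as a covariate). Vil1, the microvillus protein villin, was at 794, 651, 593 and 864 scaled RPKM in Tas1r3+/+ mice and at 452 and 348 in Tas1r3-/- mice (-0.85). Epcam, a surface protein of all intestinal epithelial cells, was at 1279, 1219, 1063 and 1463 against 704 and 645 (-0.89). Alpi, the brush border alkaline phosphatase, was at 81.4 to 191 against 54.6 and 38.0 (-1.18). In bulk tissue, fewer cells of a type and less RNA per cell cannot be told apart.

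Digestive and transport genes of these cells lay lower as well. Of 19 amino acid and peptide transport genes, 13 were lower and 0 were higher without overlap (median -0.86, and -0.37 with sex as a covariate). Over all genes, the shares were 13.7% and 9.34%. Dpp4, a brush border peptidase, was at 142, 125, 151 and 235 scaled RPKM against 83.3 and 50.5 (-1.28). Slc6a19, the main neutral amino acid transporter, was at 86.4 to 139 against 62.5 and 35.9 (-1.21). Slc3a1, the heavy subunit of the cystine and basic amino acid transporter, was at 88.1 to 139 against 59.8 and 42.3 (-1.17). For each of these, the knockout male 2 library was the lowest of the 6.

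Among 22 genes of sugar digestion and metabolism, which handle the nutrients that TAS1R3 senses in taste cells, 13 were lower and 1 was higher without overlap. Of all genes, 13.7% were lower and 9.34% higher. The median of the 22 was -0.72, and -0.44 with sex as a covariate. Slc2a2 (GLUT2), the basolateral glucose transporter, was at 2.97, 3.09, 0.842 and 5.91 scaled RPKM in Tas1r3+/+ mice and at 0.667 and 0.512 in Tas1r3-/- mice (-1.57, standard error 0.79). Fbp1, a gluconeogenic phosphatase, was at 11.4, 34.7, 7.59 and 18.8 against 6.59 and 3.68 (-1.55), and Treh, trehalase, at 17.8 to 61.4 against 11.9 and 6.84 (-1.52). The wild-type libraries themselves differed several-fold in these genes, with male 2 the highest for Fbp1 and Treh. Pck1, another gluconeogenic gene, overlapped (4.15 to 16.1 against 8.57 and 30.4, 1.08).

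Fat absorption and chylomicron genes were lower in 11 of 20 and higher in 0 without overlap, against 13.7% and 9.34% of all genes. Their median was -0.55, with -0.25 with sex as a covariate and -0.59 on the WD. Apoa1, an apolipoprotein of chylomicrons and HDL, was at 2674, 5050, 3140 and 4653 scaled RPKM in Tas1r3+/+ mice and at 1642 and 736 in Tas1r3-/- mice (-1.77, standard error 0.84). Apoc3 was at 28.9 to 77.2 against 28.1 and 6.93 (-1.75, but -0.78 without Tas1r3-/- male 2 and -2.73 without male 1). Apoa4 varied from 17.7 to 435 among the Tas1r3+/+ libraries and overlapped with the knockout (74.1 and 3.55). Creb3l3, a membrane-bound transcription factor that activates apolipoprotein genes, was at 17.5 to 66.8 against 12.4 and 4.81 (-2.34, standard error 0.90). Slc27a4, a fatty acid transport protein, was at 117 to 168 against 89.2 and 53.1.

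Bile acid genes had a median of -0.51, which was -0.20 with sex as a covariate. Without overlap, 5 of 10 were lower, against 13.7% of all genes, and 0 were higher. Slc10a2 was at 108, 105, 54.5 and 128 against 53.3 and 38.5 (-1.05). Slc51a and Slc51b, the subunits of the basolateral exporter, were at 392 to 868 against 347 and 375, and at 147 to 336 against 130 and 139. Fgf15, the hormone induced by bile acids through FXR, ranged from 0 to 35.6 in Tas1r3+/+ mice and was at 0.0745 and 1.63 in Tas1r3-/- mice, with overlap. Xenobiotic metabolism genes were lower in 7 and higher in 1 of 32, a share of 25% that is near the 23% of all genes. Their median was -0.51, and -0.25 both with sex as a covariate and in males alone. They included Aldh1a1, a retinal dehydrogenase, at 41.5 to 84.8 against 29.5 and 29.0 (-1.05, standard error 0.33).

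Tight junction genes, which seal the paracellular space, were lower in 9 of 17 and higher in 0 without overlap (median -0.41). Over all genes, 13.7% were lower. Marveld3 was at 33.8 to 53.6 scaled RPKM against 26.3 and 20.6, Cldn23 at 18.6 to 33.6 against 14.4 and 17.5, and Cgn (cingulin) at 21.3 to 39.5 against 20.4 and 21.0. Of 14 goblet cell genes, 1 was higher and 2 were lower without overlap, against 9.34% and 13.7% of all genes. Their median was -0.33, and -0.13 with sex as a covariate. Zg16, a lectin of mucus, was lower (4292 to 5545 against 2756 and 2536), whereas Spink4 was higher (298 to 675 against 1407 and 775).

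**Figure D2:**
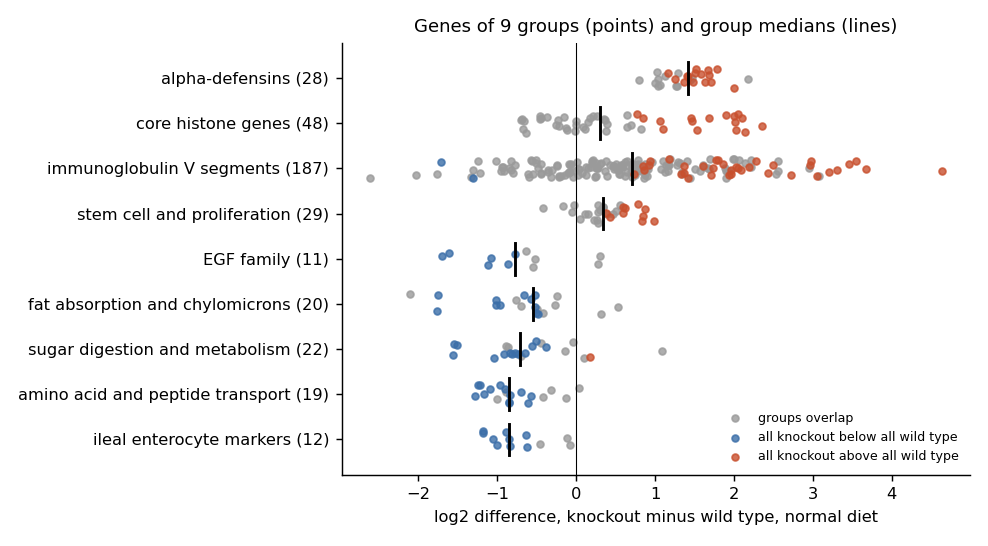
Log2 difference, Tas1r3-/- minus Tas1r3+/+ on the ND (x axis), of each tested gene (points) of 9 groups (rows, with the number of genes), with the group median as a black line and colour marking genes whose libraries do not overlap between genotypes. Alpha-defensins lie to the right of 0 (median 1.42), and the absorptive groups at the bottom lie mostly to the left (medians -0.55 to -0.86).

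The remaining cell types moved with these lists as follows. Smooth muscle markers had 12 of 12 positive differences (median 0.62) but 0 without overlap, with a summed level of 4146 and 2189 in Tas1r3-/- mice against 1209 to 3768 in Tas1r3+/+ mice. Neuron and glia markers had 12 of 12 positive differences (median 0.51) and 2 without overlap (9.34% of all genes were higher). These 2 included S100b, a glial calcium-binding protein gene. T cell, myeloid and stromal markers had medians of 0.32, 0.14 and 0.19, with 0 higher without overlap in each. In males alone, 11 of 12 smooth muscle, 10 of 12 neuron and glia and 9 of 14 T cell markers were higher without overlap. Of all genes, 23.9% were. The medians of these 3 lists in males were 1.03, 0.74 and 0.77. Of the myeloid and stromal markers, 3 of 15 and 5 of 13 were higher in males. Markers of the colon and the proximal gut had negative medians (-0.48 and -0.51). Clps, a pancreatic colipase gene, was at 48.5 to 110 against 303 and 123, while Cela1, the other pancreatic marker tested, overlapped. The muscle sum of Tas1r3-/- male 2 lay below that of Tas1r3+/+ female 1. By the median over the list, the enterocyte markers of Tas1r3-/- male 2 were the lowest of the 6 libraries. By their summed level, Tas1r3-/- male 1 was the lowest (5936, against 9242 in Tas1r3-/- male 2 and 8426 to 12967 in Tas1r3+/+ mice). The part of tissue make-up in the enterocyte differences was not tested. The 2 knockout libraries also ranked differently, since male 1 had the higher muscle sum and male 2 the lower enterocyte levels for most genes named above.

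**Figure D3:**
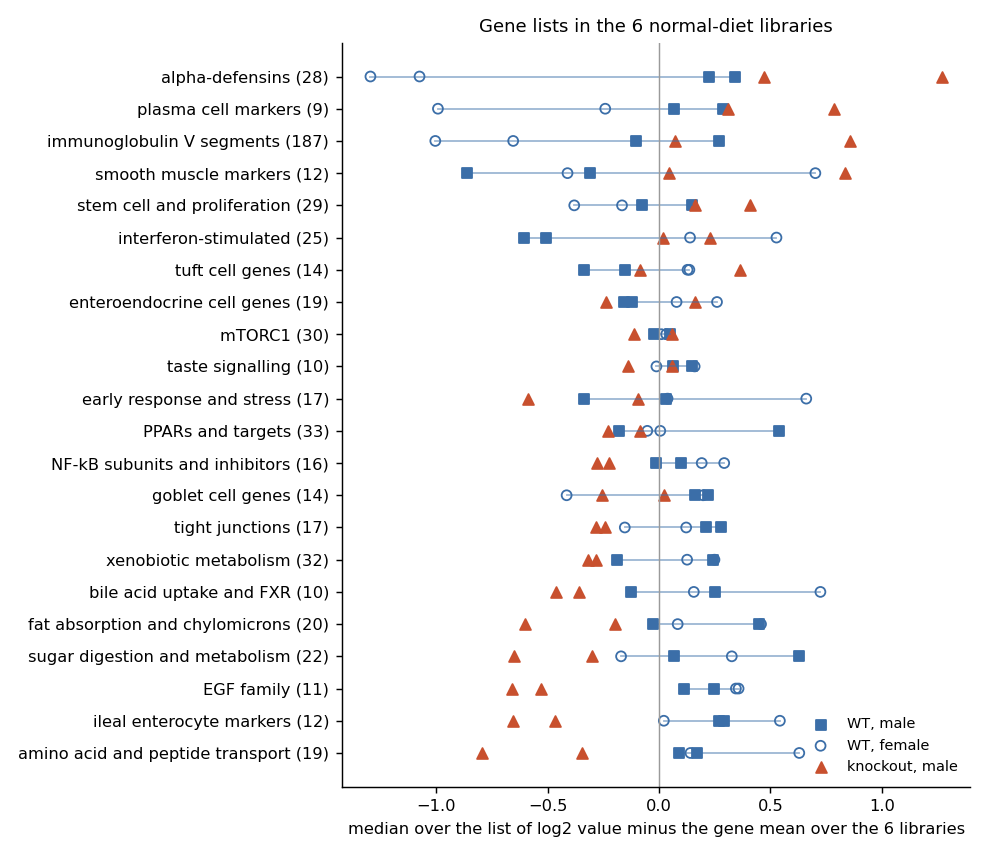
Median over each gene list (rows, with the number of genes) of log2 value minus the mean of that gene over the 6 ND libraries (x axis), for Tas1r3+/+ males (squares), Tas1r3+/+ females (open circles) and Tas1r3-/- males (triangles). For amino acid transport, enterocyte markers, the EGF family and sugar handling both triangles lie below all 4 Tas1r3+/+ libraries, whereas for alpha-defensins the 2 Tas1r3+/+ females lie far below the males of either genotype.

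Alpha-defensins, the antimicrobial peptides of Paneth cells, were the most abundant products to differ. They were grouped after their values were seen. All 28 tested genes had a positive log2 difference (median 1.42), 15 without overlap, against 9.34% of all genes with the knockout above. Defa30 was at 5874, 5705, 1828 and 5956 scaled RPKM in Tas1r3+/+ males 1 and 2 and females 1 and 2. It was at 16148 and 19046 in the Tas1r3-/- males (2.0, standard error 0.59). Defa38 was at 690 to 1525 against 3612 and 3598 (1.67), and Defa29 at 611 to 1546 against 3210 and 2805 (1.58). The sexes differed strongly in this family. The summed level was 124530 and 121150 in the Tas1r3+/+ males, 45569 and 40742 in the Tas1r3+/+ females, and 258410 and 121310 in the Tas1r3-/- males. The sum of Tas1r3-/- male 2 thus equalled those of the Tas1r3+/+ males, and male 1 alone was higher. These genes made up 30.4% of the unscaled RPKM sum of Tas1r3-/- male 1 and 6.33% to 18.3% of that of the others. In males alone, the median was 0.65, and 16 of the 28 were higher without overlap (23.9% of all genes). On the WD, the median was 1.53, but 15 of the 28 genes carry additional digits in WD libraries. Members are near-identical in sequence, so reads may have been divided among them. Other Paneth cell products were less distinct, with Lyz1 at 1423 to 5378 against 5716 and 3729 and Ang4 at 97.3 to 673 against 1770 and 442.

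Antimicrobial genes of enterocytes and goblet cells set the 2 knockout libraries apart from each other. Saa1, an acute-phase protein induced by epithelial contact with bacteria, was at 564 scaled RPKM in Tas1r3-/- male 1 and at 29.0 in male 2 (19.4-fold), against 316 to 1074 in Tas1r3+/+ mice. Retnlb, a goblet cell bactericidal protein, was at 218 and 5.87 (37.1-fold), against 1.53 to 27.3. Fut2, Saa2, Reg3g and Reg3b differed 20.5, 16.5, 5.36 and 4.43-fold between the 2 knockout libraries, with male 1 higher for each. Over the 24 antimicrobial genes, the median absolute log2 difference between these libraries was 1.65, against 0.271 over all genes. The genotype difference of the list (median -0.22, 1 of 24 without overlap, against 23% of all genes) therefore averages 2 unlike libraries.

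Immunoglobulin genes lay higher for the most part. Igha, the heavy chain of mucosal IgA, was at 2535, 4522, 3096 and 1536 scaled RPKM in Tas1r3+/+ mice and at 6229 and 7654 in Tas1r3-/- mice (1.35, standard error 0.60). Igkc was at 2257 to 5826 against 8022 and 10141 (1.26), and Jchain, which joins IgA dimers, overlapped (73.5 to 264 against 254 and 394). Mzb1, an antibody secretion factor, was at 6.24 to 15.8 against 18.8 and 21.3. Of the 9 plasma cell markers tested, 2 were higher and 2 were lower without overlap, against 9.34% and 13.7% of all genes. The median of these markers was 0.74, and 0.39 in males alone, where 2 were higher and 2 lower. Over 187 V segments, 36 were higher and 2 were lower without overlap (20.3%, against 23% of all genes), and 9 were among the 42 higher genes. Their median was 0.71, which became 0.30 with sex as a covariate and 0.45 in males alone, where 47 were higher and 21 lower. Segment use differed between mice. Igkv1-117 was the leading V segment in all 4 Tas1r3+/+ libraries (8.51% to 11.6% of the V sum), whereas Ighv7-3 led in both Tas1r3-/- libraries (8.96% and 10.8%). Ighv7-3 was also at 717 in Tas1r3+/+ male 2, above the 560 of Tas1r3-/- male 1, so its level did not separate the genotypes. B cell markers had a median of -0.89, with a summed level of 115 in Tas1r3+/+ female 1 against 7.6 to 18.8 in the other Tas1r3+/+ libraries and 14.9 and 17.0 in Tas1r3-/- mice. In males alone, that median was 0.23. On the WD, the medians of V segments and plasma cell markers were -0.27 and 0.02.

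Interferon-stimulated genes, MHC class II genes and the clock showed differences between the sexes of the wild type that bear on the comparison. Of 25 interferon-stimulated genes, 0 were higher and 3 were lower without overlap (median 0.31), against 9.34% and 13.7% of all genes. In males alone, however, 18 of 25 were higher without overlap (median 0.72). Of 10 MHC class II genes, 0 were higher in the full comparison and 9 were higher in males alone, against 23.9% of all genes. Igtp, an interferon-induced GTPase, was at 2.95 and 3.95 scaled RPKM in the Tas1r3+/+ males, at 14.5 and 7.71 in the females and at 10.8 and 22.1 in the Tas1r3-/- males. Dbp, a clock output gene, was at 7.26 and 5.07 in the Tas1r3+/+ males but at 40.3 and 45.7 in the females and at 43.4 and 42.0 in the Tas1r3-/- males. Its log2 difference was therefore 1.35 over all 6 libraries and 2.72 in males. Cry1, a clock repressor, was at 5.20 to 6.13 in all Tas1r3+/+ libraries and at 1.89 and 3.47 in Tas1r3-/- mice (-1.01). The part of the time of day of sampling was not tested.

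Inflammatory genes, which the study examined on the WD, were low on the ND. Tnf was at 0.363 to 1.14 scaled RPKM in Tas1r3+/+ mice and at 0.470 and 1.05 in Tas1r3-/- mice (0.03, standard error 0.37). Il1b was at 0.754 to 1.62 against 0.760 and 1.28 (-0.05, standard error 0.35). Il18 was at 5.68 to 16.4 against 8.37 and 7.4 (-0.26). For these 3 genes the groups overlapped, and the interval of 2 standard errors on either side of the difference spans 0 without showing that the genotypes are alike. Of 16 inflammatory genes tested, 0 were higher and 1 was lower without overlap, against 9.34% and 13.7% of all genes (median 0.05). In males alone, 8 were higher and 2 lower, against 23.9% and 24.6% of all genes (median 0.37). Nos2, the inducible nitric oxide synthase, was the 1 lower without overlap (25.1, 18.4, 17.9 and 12.9 against 12.6 and 7.41). Its log2 difference was -0.87, but -0.50 without Tas1r3-/- male 2. Of the 16 NF-kB subunits and inhibitors, 6 were lower without overlap, against 13.7% of all genes, and 0 were higher (median -0.31). Relb was at 39.3 to 59.6 against 25.4 and 26.7, Nfkbia at 42.9 to 90.2 against 37.3 and 40.1, and Tnfaip3 at 8.46 to 13.2 against 7.21 and 4.83, whereas Nfkb1 overlapped. Of 30 mTORC1 components and targets, 1 was higher and 3 were lower without overlap, against 9.34% and 13.7% of all genes. Their median was 0.00. Mtor itself was at 5.71 to 6.61 against 3.62 and 4.50 (-0.57, standard error 0.20), with additional digits in both wild-type females. Cldn7, a claudin, was at 611 to 845 against 600 and 464 (-0.41) but 1.38 higher on the WD on the log2 scale, where values in both knockout males and in 2 wild-type libraries carry additional digits. The limma interaction p for Cldn7 was 0.00023 before adjustment and 1.00 after, and the limma interaction test called 0 genes at the strict threshold, with 260 of 18232 at an unadjusted p under 0.05.

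The WD libraries share no animal with the ND libraries, so they give a second look at the genes described. Both contrasts came from 1 limma fit with a shared spread per gene, so the p-values on the 2 diets are not independent. Of the 42 higher genes, 31 (73.8%) were positive on the WD as well, against 58.5% of all genes that were positive on the ND. Of the 37 lower genes other than Tas1r3, 30 (81.1%) were negative, against 70.7% of all genes that were negative. The differences were smaller there, with medians of 0.42 and -0.51 on the WD against 1.69 and -1.37 on the ND. Only 8 genes had an unadjusted p under 0.01 and a 2-fold difference in the same direction on both diets: Tas1r3, C1qtnf12, Ocm, Rdh7, Aadac and Sema7a were lower, and H2ac7 and Pparg were higher.

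C1qtnf12, an adipokine-like secreted protein, lies on chromosome 4 close to Tas1r3 (chr4:155962318-155966629). It was at 22.4, 39.7, 19.3 and 24.8 scaled RPKM in ND-fed Tas1r3+/+ mice and at 9.48 and 7.97 in Tas1r3-/- mice (-1.50, standard error 0.34, and -1.40 on the WD). Ocm, the calcium-binding protein oncomodulin, was at 50.2, 57.9, 39.2 and 70.2 against 15 and 25.3 (-1.43, standard error 0.29, and -1.06 on the WD). Sema7a, a membrane-anchored semaphorin, was at 7.37 to 8.39 in the Tas1r3+/+ libraries, a narrow range, and at 2.86 and 4.06 in Tas1r3-/- mice (-1.12 and -1.02).

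Rdh7, a retinol and steroid dehydrogenase, was at 6.81, 24.5, 5.94 and 6.34 against 1.48 and 2.68 (-1.91 and -1.53), with Tas1r3+/+ male 2 far above the others. Aadac, a lipase of the endoplasmic reticulum, was at 0.824 to 3.27 against 0.349 and 0.695 (-1.21 and -1.74). Pparg, the nuclear receptor that controls fat storage and restrains inflammation, was at 1.22, 2.79, 2.84 and 3.84 against 9.90 and 9.55 (1.76, standard error 0.43, and 2.08 on the WD). In 3 of these 6 Pparg values, a transcript carries additional digits, as it does on the WD in both knockout males and in 1 wild-type library. Ppara was likewise higher (1.67 to 4.61 against 6.71 and 4.88, 0.98), with additional digits in both wild-type females. Of 30 targets and partners of these receptors, 0 were higher and 6 lower without overlap (median -0.29), against 9.34% and 13.7% of all genes. Fabp2 and Vnn1 were among the lower ones (467 to 1683 against 424 and 272, and 11.3 to 46.0 against 11.3 and 8.55).

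**Figure D4:**
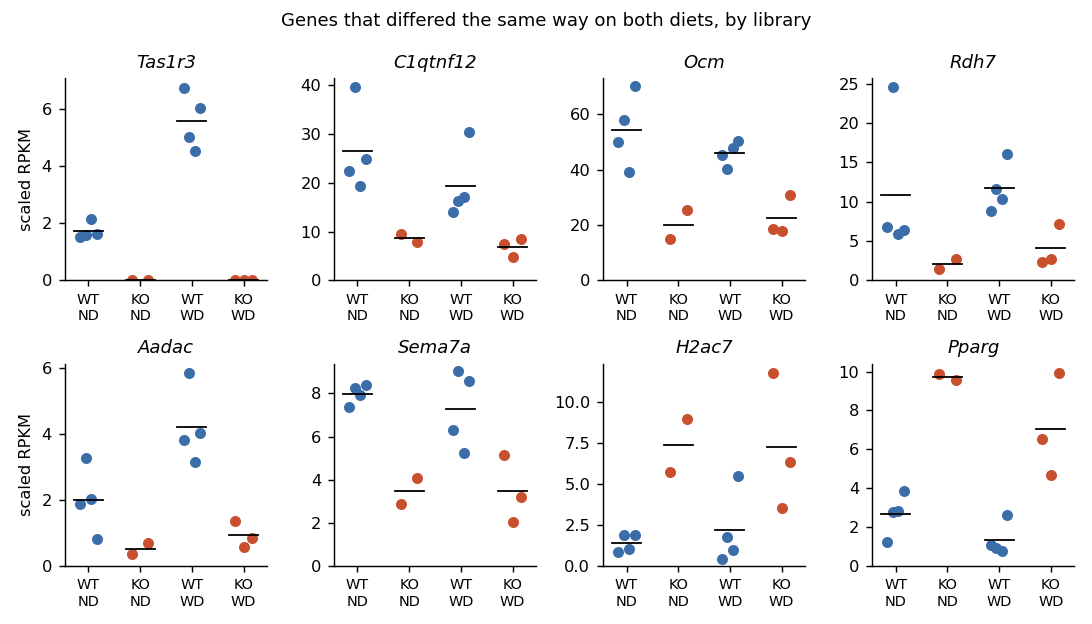
Scaled RPKM (y axis) of the 8 genes that met an unadjusted p under 0.01 and a 2-fold difference in the same direction on both diets, in the 4, 2, 4 and 3 libraries of each group (points; line, group mean; the WD knockout females are averaged into 1 point). The Tas1r3-/- points of C1qtnf12, Ocm, Rdh7, Aadac and Sema7a lie below, and those of Pparg above, all Tas1r3+/+ points of the same diet; for H2ac7 the WD points overlap.

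The allele was bred into C57BL/6 by backcrossing, in which DNA of the strain of origin persists longest beside the allele, and genes near Tas1r3 were described separately. Within 1000 kb, 51 genes were tested, of which 8 were higher and 12 were lower without overlap (39.2%, against 23% of all genes), and 6 (11.8%) had a limma p under 0.05 before adjustment, against 5.07%. Within 500 kb and 5000 kb, 39.5% of 43 genes and 37.3% of 83 genes did not overlap. Gnb1 of the taste list lies within 500 kb, and Errfi1 of the EGF family at the edge of 5000 kb. The median log2 difference of the 51 genes was -0.05, so the differences went both ways. Of the 51, 2 had an unadjusted limma p under 0.01 and a 2-fold difference. They were C1qtnf12 and 5830444B04Rik, a gene model on the other side of Tas1r3. Levels of 5830444B04Rik were 1.29 to 4.16 scaled RPKM against 0.12 and 1.04 (-1.74, standard error 0.56). Ttll10, a tubulin ligase-like glycylase gene, was at 4.27 to 10.6 against 3.27 and 2.27 (-1.24, standard error 0.45). Ube2j2, a ubiquitin-conjugating enzyme of the endoplasmic reticulum, was at 21.0 to 28.0 against 18.5 and 14.5 (-0.57, standard error 0.21). Ints11, the catalytic subunit of the integrator complex, was at 12.3 to 14.7 against 19.6 and 18.6 (0.47, standard error 0.20). Mxra8, a stromal adhesion protein, was at 8.77 to 30.7 against 32.9 and 38.2 (1.19, standard error 0.63). On the WD, the difference was -0.68 for 5830444B04Rik, -0.16 for Ttll10, -0.14 for Ube2j2, 0.41 for Ints11 and 0.06 for Mxra8. Donor-strain sequence and loss of TAS1R3 cannot be told apart in these animals.

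**Figure D5:**
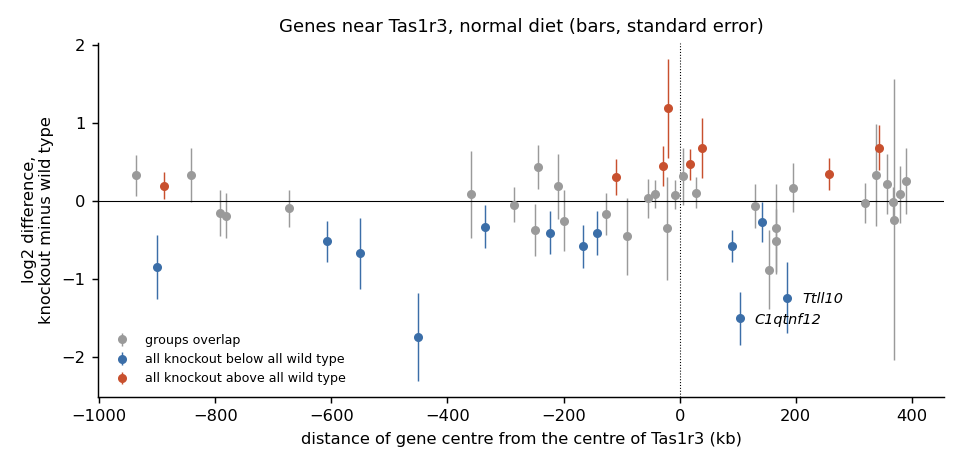
Log2 difference, Tas1r3-/- minus Tas1r3+/+ on the ND (y axis; bars, standard error), of the tested genes within 1000 kb, by distance of the gene centre from the centre of Tas1r3 in kb (x axis); colour marks genes whose libraries do not overlap between genotypes. C1qtnf12 (-1.50) and Ttll10 (-1.24) lie on one side of Tas1r3 and 5830444B04Rik (-1.74, not labelled), the lowest, on the other, among genes that went in either direction.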

How the data were processed

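The authors sequenced poly(A)-selected ileal RNA of both genotypes on both diets with an Ion Proton instrument. The authors mapped the reads with STAR in Partek Flow to mm10 (GRCm38), quantified Ensembl transcripts and named DESeq2 for their own tests. The deposited values were treated as RPKM per transcript, and depth was inferred from their steps. About 70% of low values were whole reads, so no count test was run.

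Transcript RPKM was summed to genes. Library scale factors came from trimmed means of log ratios (30% of ratios and 5% of levels trimmed). A pseudocount of 0.5 was added before taking log2, and limma 3.58.1 was fitted (R 4.3.3, mean-variance trend) on 13 libraries in 4 groups. The WD knockout female columns were averaged into 1. Single genes had a two-sided exact permutation test. In data simulated for this comparison, limma called 59 of 200 genes with a log2 change of 1.5 and 175 of 200 with 3 at the strict threshold, among 18232 genes. It also called 3 unchanged genes each time. The changed genes were drawn only from genes expressed above the level of Tas1r3, and differences by sex or tissue make-up were not simulated. Coordinates are from GENCODE (97.6% of genes matched), and promoters from RefSeq. Tables were made with Python 3.11.15, numpy 2.4.6 and pandas 2.3.3.

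The members, lists and tests were chosen with earlier results of these data known. Named genes were Tas1r3 and the taste list, genes called at an adjusted p under 0.05, the 12 largest differences in each direction (without immunoglobulin segments, sex-linked and unnamed models), genes past the descriptive threshold on both diets, neighbours within 1000 kb, leading members of the 37 lists, marker genes and genes the study names. The alpha-defensin, histone, immunoglobulin and EGF groups, the members named from them, and the overlap counts in males alone, were chosen after seeing values. The labels give 4 mice per group and the study's methods 6. Nothing ties libraries to separate cages, so p-values measure the spread between these samples.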

Additional observations from a re-analysis of the deposited data

Results flagged for a closer look

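Of the 109 genes examined, some had 1 of the 4 ND-fed Tas1r3+/+ libraries far from the other 3. The measure is the gap to the nearest library divided by the whole range, on log2 values, with Dixon's 95% critical value, which chance passes in about 1 of 20 groups. Female 1 was the highest for Tas1r3 (0.836) and the lowest for Trpm5 (0.914), Defa30 (0.964) and Spink4 (0.930). Female 2 was the highest for Snora73b (1.00). Male 1 was the lowest for Hist1h2an (0.837). Male 2 was the highest for Rdh7 (0.907), Fam183b (0.842) and Alpi (0.898).

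Cldn7, the claudin, differed between the diets. It was lower in Tas1r3-/- mice on the ND and higher on the WD, where values in 2 knockout and 2 wild-type libraries carry additional digits. Both effects differed by -1.80 on the log2 scale, with an unadjusted p of 0.00023 and an adjusted p of 1.00 for limma's interaction term. No gene passed adjustment in this test.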

How the results depend on the processing

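With 2 knockout libraries, both male, the number of genes past a threshold depended on the spread that was assumed. The strict count of 0 became 1 (Tas1r3) with a pseudocount of 0.1, with all 16 columns as labelled, and without the variance trend. Requiring a mean RPKM of at least 5, or dropping the transcripts with additional digits, removes Tas1r3. The count of 1 gene at an adjusted p under 0.05 was 0 in both settings. It was also 0 with a pseudocount of 1, sex as a covariate, male libraries alone or ND males alone. It was 3 with the ND libraries alone (Gm37335, Hist1h2ao and Ighv2-4), 2 with the most abundant transcript and 7 with all 16 columns (among them Ocm, adjusted p = 0.0432). Leaving out any 1 of the 6 libraries gave a count of 0 to 0. The 80 genes at an unadjusted p under 0.01 and 2-fold became 176 without scaling, 51 with a mean RPKM of at least 5, 289 with the ND libraries alone, 205 with male libraries, 420 with ND males and 269 with all 16 columns, and 58 to 94 without 1 library. With the replicate number as a block the counts were 0 and 178, but the numbers do not pair the mice (correlation of deviations 0.0271 for males 1 and 0.0606 for males 2).

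Named genes kept their direction in all but 24 of 2477 recalculations. The sign turned without scaling for Plcb2 (-0.052) and Tnf (-0.070), with the most abundant transcript for Trpm4 (0.083) and Ube2j2 (0.16), and without additional digits for Pck1 (-0.49). With 1 library left out, the log2 difference ranged from -1.68 to 0.52 for Gnat1, -0.072 to 0.29 for Plcb2, -4.22 to 0.043 for Saa1, -0.30 to 0.37 for Tnf and -0.30 to 0.20 for Il1b. In male libraries and ND males, Lyz1 stood at -0.19 and -0.19, Il1b at 0.24 and 0.25 and Il18 at 0.29 and 0.29. With sex as a covariate, Il1b was at 0.11 and Il18 at 0.14, and with the replicate block they were at 0.18 and 0.25. Leaving out 1 library moved the log2 difference of 35 of 109 named genes by over 1.5 times. The cause was not tested.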

Other observations

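Of 24 cholesterol synthesis genes, 6 were lower and 0 higher without overlap in ND-fed Tas1r3-/- mice, a share near the 23% of all genes. Their median log2 difference was -0.26, and 0.00 on the WD. Sqle, squalene epoxidase, was at 63.2 to 82.5 scaled RPKM in the 4 Tas1r3+/+ libraries and at 54.4 and 47.0 in the 2 Tas1r3-/- libraries. Of 22 genes of the unfolded protein response, 4 were lower and 0 were higher without overlap (18.2%, against 23% of all genes), the median was -0.08, and males alone gave 3 higher and 5 lower. The 4 included the sensor kinase gene Eif2ak3 (9.33 to 16.6 against 8.94 and 6.06) and the chaperone gene Dnajb9 (7.27 to 11.8 against 6.25 and 4.82). Of 11 iron genes, 4 were lower and 1 was higher without overlap, against 13.7% and 9.34% of all genes. Their median was -0.14, and 0.02 with sex as a covariate. Heph, the ferroxidase that accompanies iron export, was at 20.4 to 39.4 against 17.7 and 14.8. Adipocyte and erythroid markers had medians of -0.16 (0.58 with sex as a covariate) and 0.48, and none of the 12 and 4 genes tested was without overlap. These groups were not tested as groups, and the median of all genes was 0.02.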
